A study of Mus musculus with 30 samples.

Results

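Cytochrome P450 genes outside the Cyp1 family were examined in the preputial glands of male mice fed benzo[a]pyrene (BaP), to ask whether other P450s change where Cyp1a1 or both Cyp1a1 and Cyp1b1 are missing. The set held every gene whose symbol is Cyp followed by a digit, except Cyp1a1, Cyp1a2, Cyp1b1, Cyp2s1, Cyp51, Cyp26a1 and Cyp26b1. With 1 probe set per gene, the brightest over all arrays, it came to 83 of the 18784 genes measured. All mice carried the B6 background. WT mice were wild type, Cyp1a1 KO mice were labelled as lacking Cyp1a1, and DKO mice as lacking Cyp1a1 and Cyp1b1. The diet started at 6 weeks of age and supplied about 12.5 mg/kg/day of BaP, and glands were taken at weeks 0, 4, 8, 12 and 16. Each of the 15 groups had 2 mice and 1 array per mouse, 30 arrays in all. The labels name the tissue as the duct of the gland, while the protocol speaks of dissected glands, and which of these was extracted was not settled. Week 0 mice had no BaP and were also the youngest, so that time on the diet and age cannot be told apart.

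P450 enzymes are heme proteins that insert an oxygen atom into lipophilic substrates with electrons from NADPH, passed on by P450 reductase and, for some reactions, by cytochrome b5. Members of the Cyp2 and Cyp3 families oxidise drugs and other foreign chemicals, many in the liver. Cyp2j and Cyp4 enzymes act on arachidonic acid and other fatty acids, while further families make or degrade steroid hormones, bile acids, vitamin D and retinoic acid. Cyp1a1 and Cyp1b1, which are induced by polycyclic hydrocarbons through the aryl hydrocarbon receptor AhR, oxidise BaP itself. The preputial gland is a modified sebaceous gland whose duct is lined by stratified squamous epithelium.

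Values are log2 intensities, so that a difference of 1 is a doubling. The spread of an array, as the standard deviation (SD) over its genes, fell into 2 classes, 1.70 to 2.08 on 21 arrays and 1.15 to 1.42 on 9. The narrow class, called low-range here, comprised replicate 2 of Cyp1a1 KO at week 12 and 8 DKO arrays. Only replicate 1 of week 0 and replicate 2 of week 12 were of normal range among DKO. On low-range arrays high values are lower and low values are higher, so the main results are also given without all 9 of them. DKO then keeps 1 array at week 0 and 1 at week 12, so that its differences cover these 2 weeks and not all 5. A group with 1 array adds nothing to the spread, which then comes from pairs of WT and Cyp1a1 KO arrays alone. Errors and p values given for DKO in that setting hold no scatter between DKO mice and can be too small. Cyp1b1 averaged 6.48 in WT, 8.11 in Cyp1a1 KO and 9.82 in the arrays labelled DKO, and Cyp1a1 averaged 4.48, 4.10 and 4.78. Neither gene was lowest in DKO, so they do not check its label, and whether their probes lie outside the deleted parts was not tested. DKO means the arrays so labelled throughout. Nothing in the labels says how the 2 mice of a group were housed or related.

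Of the 83 genes, 68 lay below the median of all gene means (5.36) and 7 lay above the 75th percentile (6.50). These 7 were Cyp2b19, Cyp2f2, Cyp2j12, Cyp2j6, Cyp2e1, Cyp27a1 and Cyp4b1. Another 26 genes did not exceed the median of their array on any of the 30 arrays. A signal near the bottom of the range can be background as well as transcript, and near-identical copies within Cyp2c, Cyp2d, Cyp2j, Cyp3a, Cyp4a and Cyp4f may share probes. Hepatocyte markers (7 of 7 measured, among them Alb and Apoa1) had list means per array of 3.89 to 4.34 for WT, 3.85 to 4.80 for Cyp1a1 KO, and 4.05 to 5.45 for DKO.

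Upstream sequences were found in RefSeq (GRCm38.p6) for 60 of the 83 genes. Those of the 5 genes with the largest falls from WT in DKO are shown, chosen by these values. Of all genes with a WT mean of 7 and above, as these 5 have, 82.9% were lower in DKO (adjusted p under 0.05 in limma). Cyp2e1 and Cyp2j6 lay between the 10th and 90th percentile of the differences of those genes. Each run is the 250 bases before the transcription start, written 5′ to 3′ on the gene's own strand. Capitals mark 3 motifs searched on both strands. GCGTG is the core that AhR binds with its partner Arnt. A nuclear receptor half-site is written AGGTCA, and the usual box near the start is TATAAA. The windows are chr7:26756892-26757141 on the plus strand for Cyp2b19, chr7:27119705-27119954 on the plus strand for Cyp2f2, chr4:96141153-96141402 on the minus strand for Cyp2j12, chr4:96553652-96553901 on the minus strand for Cyp2j6 and chr7:140763569-140763818 on the plus strand for Cyp2e1.
Cyp2b19: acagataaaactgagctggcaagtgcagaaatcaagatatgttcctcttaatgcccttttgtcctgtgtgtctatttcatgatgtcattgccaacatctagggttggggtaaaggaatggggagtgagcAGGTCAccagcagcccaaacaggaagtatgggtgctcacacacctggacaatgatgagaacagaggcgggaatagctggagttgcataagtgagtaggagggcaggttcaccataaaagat
Cyp2f2: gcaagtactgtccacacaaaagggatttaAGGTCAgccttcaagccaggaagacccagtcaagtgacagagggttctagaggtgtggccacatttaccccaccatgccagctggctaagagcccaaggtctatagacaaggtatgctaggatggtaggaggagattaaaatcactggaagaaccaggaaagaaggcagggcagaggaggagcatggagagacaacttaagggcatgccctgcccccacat
Cyp2j12: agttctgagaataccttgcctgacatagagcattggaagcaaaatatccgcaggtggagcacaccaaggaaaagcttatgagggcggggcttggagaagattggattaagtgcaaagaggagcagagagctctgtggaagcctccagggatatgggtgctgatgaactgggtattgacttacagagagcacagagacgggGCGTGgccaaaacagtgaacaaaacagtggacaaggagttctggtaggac
Cyp2j6: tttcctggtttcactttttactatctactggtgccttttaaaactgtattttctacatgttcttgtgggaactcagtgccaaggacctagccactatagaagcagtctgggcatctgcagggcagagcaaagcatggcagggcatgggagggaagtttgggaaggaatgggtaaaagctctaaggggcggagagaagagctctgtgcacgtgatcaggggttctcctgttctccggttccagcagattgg
Cyp2e1: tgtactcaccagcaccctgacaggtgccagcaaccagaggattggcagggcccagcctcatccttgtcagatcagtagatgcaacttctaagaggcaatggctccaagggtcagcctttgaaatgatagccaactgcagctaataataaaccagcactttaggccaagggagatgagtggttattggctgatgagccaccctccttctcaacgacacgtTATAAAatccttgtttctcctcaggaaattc
GCGTG occurred upstream of Cyp2j12 alone among these 5, and upstream of 13 of the 60 genes (21.7%) against 30.9% of the 27025 genes with a sequence. AGGTCA occurred upstream of Cyp2b19 and Cyp2f2, and in 16 of the 60 genes (26.7%) against 15.8% of all. TATAAA occurred upstream of Cyp2e1, and in 21 of the 60 genes (35.0%) against 14.3% of all. A match describes the letters in this window and shows no binding.

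In DKO the brightest P450 genes were lower than in WT, and most faint ones were higher. Averaged over the 5 weeks, 68 of the 83 genes differed between DKO and WT at an adjusted p under 0.05 in limma, 58 higher and 10 lower. The background was high, since 74.6% of all genes were called, 43.6% higher and 31% lower. The 10 lower genes were Cyp2j12, Cyp2f2, Cyp2b19, Cyp2e1, Cyp2j6, Cyp20a1, Cyp27a1, Cyp4b1, Cyp4f13 and Cyp3a57. The arrays of both genotypes did not overlap for 19 higher and 3 lower genes, against 9.85% and 7.82% of all genes.

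Cyp2j12 belongs to the Cyp2j group, which includes epoxygenases of arachidonic acid. Its log2 intensity ranged over 9.27 to 10.19 (median 9.63) in WT, 7.001 to 9.72 (median 9.45) in Cyp1a1 KO and 4.51 to 9.32 (median 5.59) in DKO. The DKO arrays read 9.32 and 5.57 at week 0, 5.78 and 4.51 at week 4, 4.89 and 4.71 at week 8, 5.83 and 5.61 at week 12 and 4.74 and 6.53 at week 16. Replicate 1 of week 0 thus lay among the WT arrays, and the other 9 lay below every WT array. The DKO minus WT difference was -3.88 ± 0.36 (standard error, SE; 14.7-fold lower, adjusted p = 3.42e-08), and the difference from Cyp1a1 KO was -3.37 ± 0.36 (adjusted p = 1.48e-06). Without low-range arrays the values were -2.41 ± 0.17 (adjusted p = 4.47e-07) and -2.05 ± 0.18 (adjusted p = 1.02e-05). The first is the mean of a week 0 part of -0.68, which was not called on its own (adjusted p = 0.0835), and a week 12 part of -4.15. Cyp2j6, of the same group, ranged over 7.29 to 8.40 (median 7.59) in WT and 5.04 to 7.46 (median 5.73) in DKO, where it was lower by 1.74 ± 0.23 (adjusted p = 1.61e-06). Of the fainter Cyp2j genes, Cyp2j5 (difference 1.81), Cyp2j13 (1.42) and Cyp2j11 (1.04) rose, and Cyp2j9 was not called (-0.05). Median differences of all genes at similar WT levels were 0.98 for Cyp2j5 and Cyp2j11, 1.37 for Cyp2j13 and 0.56 for Cyp2j9. For all genes with a WT mean of 7 and above, as Cyp2j12 and Cyp2j6 have, that median was -1.14. Against Cyp1a1 KO, Cyp2j9 was called lower in DKO.

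**Figure D1:**
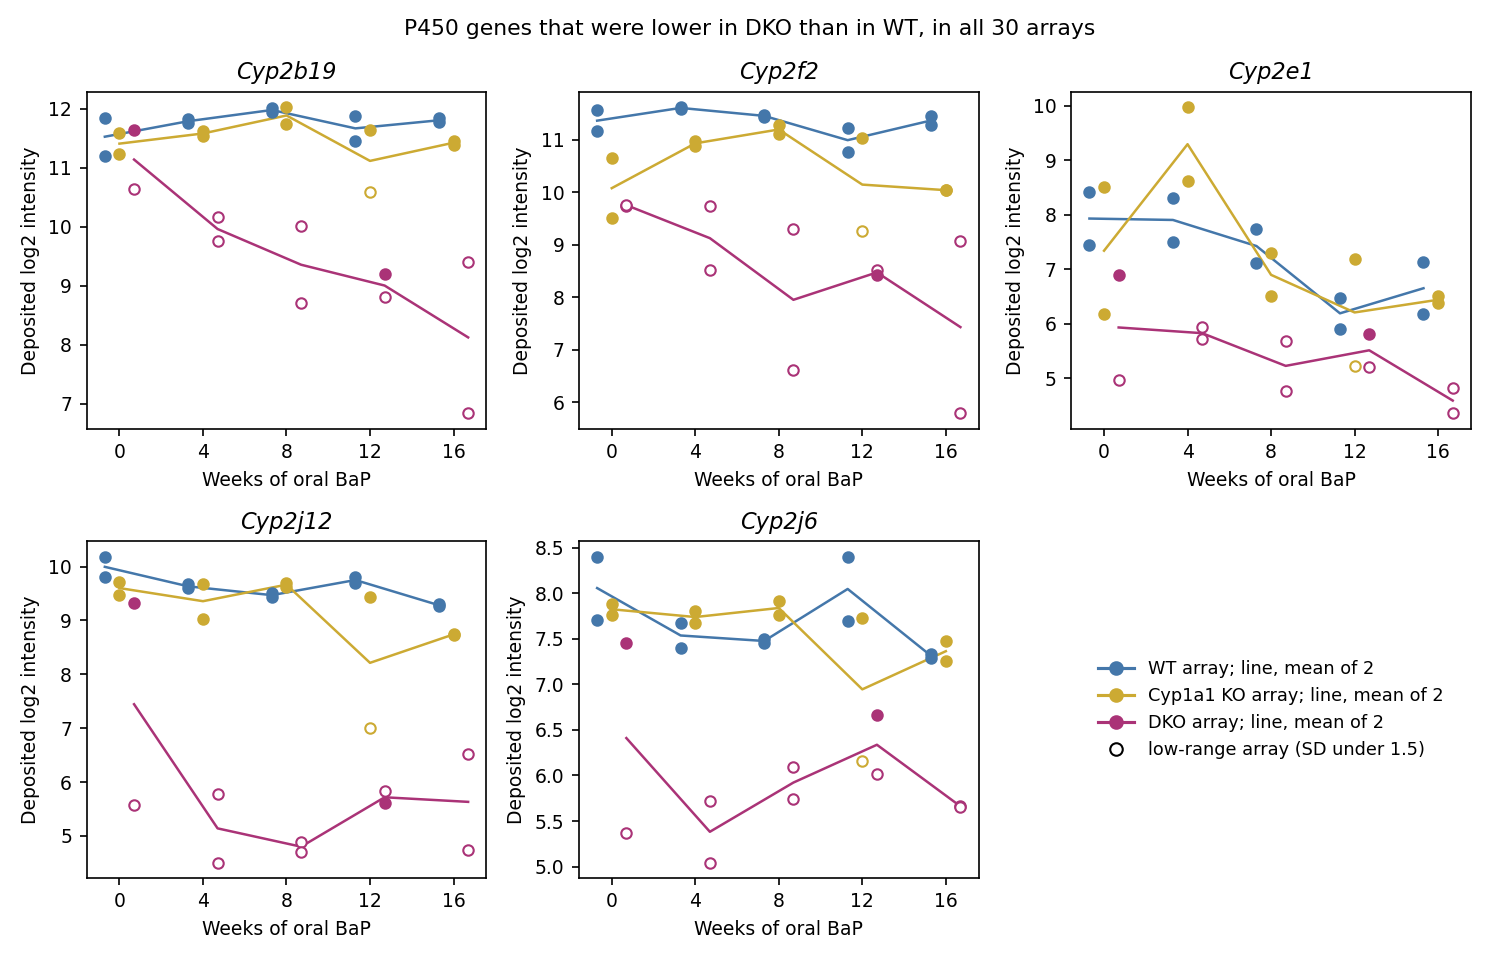
Log2 intensity on the y axis of Cyp2b19, Cyp2f2, Cyp2e1, Cyp2j12 and Cyp2j6 on each of the 30 arrays against weeks of oral BaP, with lines through the means of 2 arrays. Open circles are low-range arrays. In the panel of Cyp2j12 the first DKO array of week 0 stands at 9.32, beside WT, and the other DKO arrays stand between 4.51 and 6.53.

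Cyp2f2, which activates naphthalene in airway cells, ranged over 10.76 to 11.62 (median 11.44) in WT, 9.27 to 11.28 (median 10.77) in Cyp1a1 KO and 5.79 to 9.76 (median 8.79) in DKO. All 10 DKO arrays lay below all 10 WT arrays. It fell by 2.81 ± 0.35 against WT (7.02-fold, adjusted p = 9.87e-07) and by 1.93 ± 0.35 against Cyp1a1 KO (adjusted p = 0.00015). It was -2.09 ± 0.24 against WT without low-range arrays (adjusted p = 1.76e-05), from -1.62 at week 0 and -2.56 at week 12. The DKO array of week 0 that shares the normal range read 9.74, against 11.57 and 11.16 in WT at that week. With this as the only DKO array in the fit, the week 0 difference had an adjusted p of 0.00959 in limma, where the spread of that lone array was taken from the other groups.

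Cyp2b19, an arachidonic acid epoxygenase of differentiated keratinocytes, ranged over 11.20 to 12.01 (median 11.83) in WT, 10.59 to 12.03 (median 11.56) in Cyp1a1 KO and 6.84 to 11.63 (median 9.58) in DKO. The DKO arrays read 11.63 and 10.65 at week 0, 10.17 and 9.75 at week 4, 10.01 and 8.70 at week 8, 8.81 and 9.20 at week 12 and 6.84 and 9.41 at week 16. Every DKO array on BaP lay below both DKO arrays of week 0 and below all WT arrays. The difference from WT was -2.24 ± 0.25 (adjusted p = 2.99e-07), and -1.18 ± 0.18 without low-range arrays (adjusted p = 0.000226). The 2 weeks behind the latter disagree in sign, with 0.11 at week 0 and -2.47 at week 12. Cyp2e1, which oxidises ethanol and nitrosamines, was more variable, at 5.90 to 8.41 (median 7.29) in WT and 4.36 to 6.90 (median 5.45) in DKO. It was lower in DKO by 1.80 ± 0.32 (adjusted p = 4.6e-05), a call that ended without low-range arrays (-0.70 ± 0.54, adjusted p = 0.305). The highest Cyp2e1 value, 9.97, was in Cyp1a1 KO week 4 replicate 2, where skeletal muscle markers (6 of 6 measured) averaged 6.72 and fat cell markers (5 of 6) averaged 7.51. Their part in that value was not tested.

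The 5 other genes that fell had smaller differences. Cyp20a1, a P450 without a known substrate, differed from WT by -1.08 ± 0.23 (adjusted p = 0.000328). Cyp27a1, the sterol 27-hydroxylase, differed by -1.003 ± 0.18 (adjusted p = 6.31e-05). For Cyp4b1, which activates arylamines and hydroxylates fatty acids, the value was -0.95 ± 0.16 (adjusted p = 2.9e-05). Cyp4f13, of the Cyp4f fatty acid hydroxylases, stood at -0.75 ± 0.16 (adjusted p = 0.000336). The smallest was Cyp3a57 at -0.39 ± 0.16 (adjusted p = 0.0314), a call lost on leaving out any of 8 single arrays (adjusted p 0.00158 to 0.0928 over the 20 fits). Without low-range arrays 9 of the 10 lower genes were still called lower, all but Cyp2e1, though Cyp2b19 and Cyp3a57 were not below WT at week 0.

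The direction of the difference followed the WT signal in all genes, not in P450 genes alone, and the WT mean is itself a term of that difference. Among genes with a WT mean under 3, 99.9% of all genes and 13 of 13 P450 genes were called higher in DKO, with median differences of 1.37 and 1.42. Between 3 and 4 the medians were 0.98 for all genes and 1.07 for 34 P450 genes, 33 of them called higher. Between 4 and 5 they were 0.56 and 0.45, and between 5 and 6 they were 0.05 and -0.01. At 7 and above, 82.9% of all genes and 7 of 7 P450 genes were called lower, with medians of -1.14 and -1.80. Over all levels the median was 0.85 for the P450 genes and 0.20 for all genes.

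**Figure D2:**
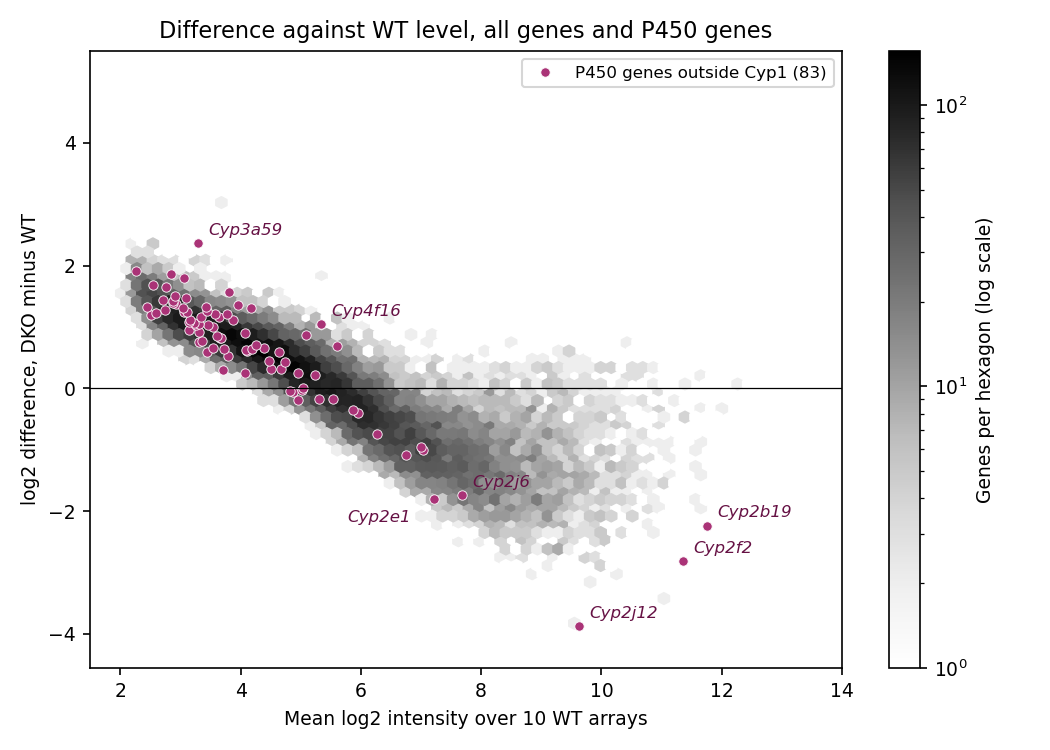
DKO minus WT log2 difference (y axis) against the mean log2 intensity over 10 WT arrays (x axis), for all 18784 genes as grey hexagons and the 83 P450 genes as points. Most points lie within the grey band that falls from left to right, while Cyp2j12 at -3.88 and Cyp3a59 at 2.36 lie at its edges.

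Within each band of WT level, 63 of the 83 genes lay between the 10th and 90th percentile of all genes, 9 lay below and 11 above. By definition about 10% of all genes in a band lie below these limits and 10% above, so the counts are near that share. Below were Cyp2j12, Cyp2f2, Cyp2b19, Cyp2c37, Cyp2c66, Cyp2j9, Cyp2b23, Cyp2u1 and Cyp2ab1. Above were Cyp3a59, Cyp4f16, Cyp2j5, Cyp24a1, Cyp3a13, Cyp2d40, Cyp2d11, Cyp2c38, Cyp2c54, Cyp3a16 and Cyp4f39. Against the median of its band Cyp2j12 stood at -2.73, Cyp2f2 at -1.67 and Cyp2b19 at -1.09. Cyp3a59 stood at 1.39 and Cyp4f16 at 0.99. The band of the first 3, 7 and above, has no upper limit, and their WT means were 9.63, 11.36 and 11.75. Band medians fell from 0.05 between 5 and 6 to -0.56 between 6 and 7 and -1.14 at 7 and above. Genes as bright as these 3 were not compared separately.

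The same pattern appeared inside 1 group of another genotype. In Cyp1a1 KO at week 12 the low-range array exceeded the normal-range array for 63 of the 83 genes, with a median difference of 0.67 against 0.11 over all genes. Of the 68 genes called between DKO and WT, 63 differed between these 2 arrays in the same direction, as did 89.2% of all genes called. Cyp2f2 read 11.03 on the normal-range array and 9.27 on the low-range one, and Cyp2b19 read 11.64 and 10.59. Without low-range arrays 34 of the 83 genes were called between DKO and WT, 25 higher and 9 lower, against 39.5% of all genes (23.3% higher). Of these 25, 23 were among the 58 called higher over all arrays. Those 34 calls rest on 2 DKO arrays, which differed from WT in the same direction at both weeks for 22 of the 25 higher and 7 of the 9 lower genes. The 5 exceptions were Cyp17a1, Cyp2c66 and Cyp4a31 among the higher and Cyp2b19 and Cyp3a57 among the lower. After quantile normalization 22 genes were called higher and 12 lower, and all 22 were among the 58, against 37.3% of all genes called (17.4% higher). The median over all genes moved from 0.20 to 0.03 with it.

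Each array carried a running number in its labels, which also followed genotype. It was 1 to 10 in WT, 11 to 19 and 30 in Cyp1a1 KO, and 20, 22 to 28, 31 and 33 in DKO. All 9 low-range arrays carried numbers from 22 to 33. The only normal-range array in that range was number 27, DKO week 12 replicate 2. Number range and low range thus nearly coincide, and settings based on them are not separate checks. With the range of numbers (1 to 20 or 22 to 33) as a block, 0 of the 83 genes were called between DKO and WT and 0 between DKO and Cyp1a1 KO, against 0.852% and 0.218% of all genes in limma. In that fit Cyp2j12 differed from WT by -1.10, Cyp2f2 by -2.03 and Cyp2b19 by -1.32. Only 2 groups held arrays of both number ranges, and they alone set the size of the block. These were Cyp1a1 KO week 12 and DKO week 0, each with 1 normal-range and 1 low-range array. Within numbers 1 to 20, which hold 1 DKO array, 8 genes were called between DKO and WT at week 0, Cyp2f2 lower and Cyp2c23, Cyp2c29, Cyp2c50, Cyp2d13, Cyp2d26, Cyp2d9 and Cyp2u1 higher, against 10.1% of all genes. Within that range Cyp2b19 differed by 0.11.

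By role, 29 of 39 genes of foreign-chemical families (Cyp2a to Cyp2g and Cyp3a) were higher in DKO than in WT and 4 were lower (Cyp2f2, Cyp2b19, Cyp2e1 and Cyp3a57), with a median of 1.16. All genes at the same WT levels had a median of 0.98, and 81.7% of them were called higher, so these counts are near the background. Of 25 fatty acid and eicosanoid genes, 17 were higher and 4 lower, with a median of 0.76 against 0.98 at the same levels, where 68.0% were higher and 14.9% lower. All 5 steroid hormone genes were higher, with a median of 1.04 against 0.98, where 93.5% were higher. They included Cyp17a1, the 17-hydroxylase and lyase (1.21 ± 0.22, adjusted p = 5.45e-05), and Cyp21a1, the steroid 21-hydroxylase (1.12 ± 0.15, adjusted p = 3.25e-06). Their WT means were 3.57 and 3.87, below the median of all genes. Markers of steroid-making cells (5 of 6 measured, among them Star) averaged 3.90 to 4.31 in WT and 4.10 to 5.30 in DKO. Of 6 sterol and bile acid genes, Cyp7a1, the first enzyme of bile acid synthesis (1.38 ± 0.19, adjusted p = 4.17e-06), Cyp7b1 and Cyp46a1 rose, Cyp27a1 fell, and Cyp8b1 and Cyp39a1 were not called. These 6 had a median of 0.52 against 0.56 at the same levels, where 57.7% were higher and 16.3% lower. All genes at the level of Cyp7a1 had a median of 1.37, and those with a WT mean of 7 and above, as Cyp27a1 has, had -1.14. Of 4 vitamin D and retinoid genes Cyp24a1 and Cyp27b1 rose, while Cyp2r1 (0.22) and Cyp26c1 (0.25) were not called. These 4 had a median of 0.48 against 0.31 at the same levels, where 48.1% were higher and 7.4% lower.

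In the larger subfamilies, too, most genes were faint, and genes at their WT levels set the background. For DKO minus WT, 43.6% of all genes were called higher and 9.85% were higher without overlap. The 13 Cyp2c genes, whose products oxidise arachidonic acid and many drugs, were all above WT in Cyp1a1 KO, with a median of 0.46 (0.10 for all genes) and 1 call. Every Cyp2c gene but Cyp2c37 had a WT mean under 4. In that comparison all genes with a WT mean under 3 had a median of 0.36, and those between 3 and 4 had 0.28. In DKO 11 of the 13 were called higher, with a median of 1.19, and 7 of these did not overlap with WT. Genes at the same levels had a median of 0.98, and 97.2% of them were called higher. Cyp2c50 was among them at 1.66 ± 0.18 (adjusted p = 2.14e-07), and at 0.89 ± 0.17 without low-range arrays (adjusted p = 0.00121). The 9 Cyp2d genes had medians of 0.22 in Cyp1a1 KO and 1.25 in DKO, where 8 were called higher, against a median of 0.98 and 78.9% higher at the same levels. Cyp2d9, a male-specific steroid 16-hydroxylase of mouse liver, stood at 1.25 ± 0.21 in DKO (adjusted p = 2.24e-05) and at 0.94 ± 0.19 without low-range arrays (adjusted p = 0.00182). Of 7 Cyp3a genes 6 were called higher in DKO and Cyp3a57 lower, with a median of 1.31 (0.98 and 84.4% higher at the same levels). Of 6 Cyp4a genes 5 were called higher, with a median of 0.96 (0.98 and 81.8%). Of 9 Cyp4f genes 7 were called higher and Cyp4f13 lower, with a median of 0.83 (0.98 and 68.1%). The 5 Cyp2b genes were mixed, with 1 called higher, Cyp2b19 lower and a median of 0.25 (0.56 and 64.6%).

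**Figure D3:**
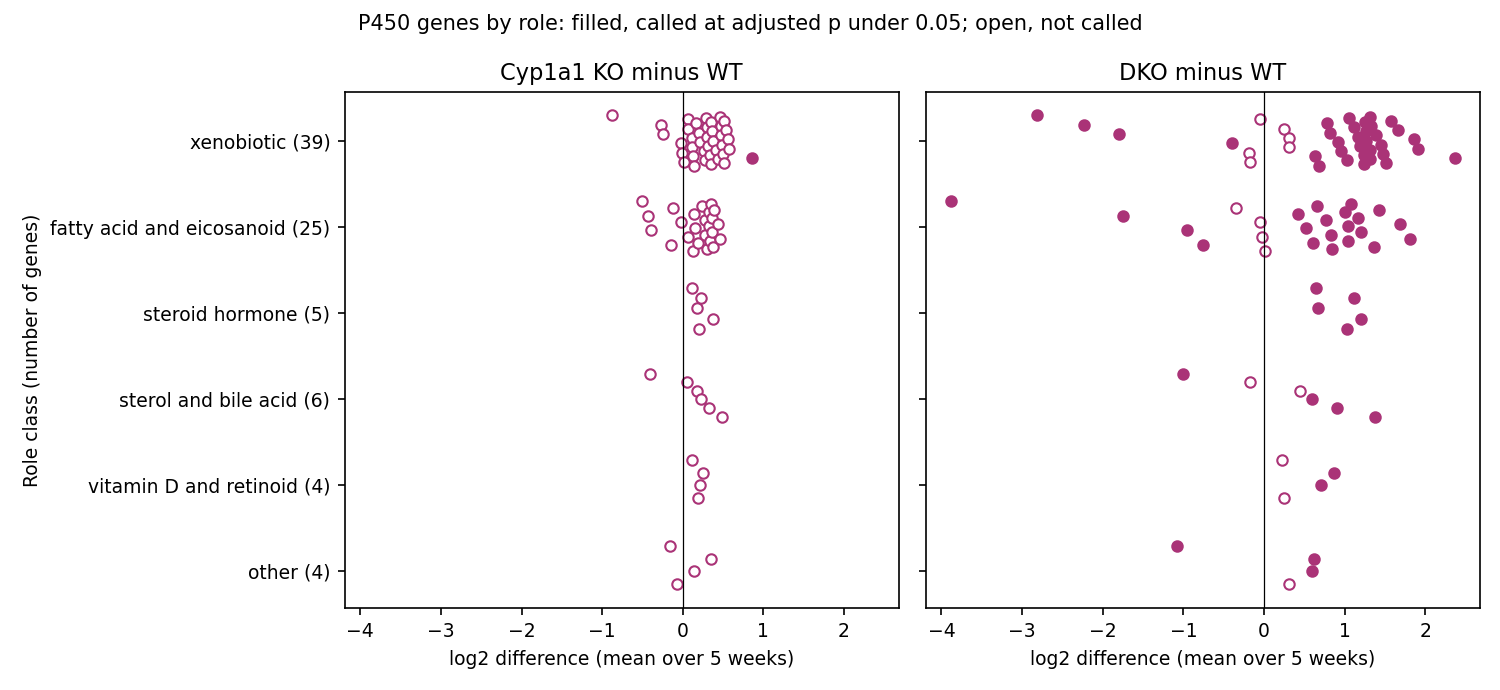
Log2 difference (x axis) of each P450 gene by role class (y axis), Cyp1a1 KO minus WT on the left and DKO minus WT on the right, filled where called. In the left panel 1 point is filled, Cyp2c37 at 0.85, and in the right panel 68 are.

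Cyp3a59, of the Cyp3a subfamily that oxidises many drugs and steroids, had the largest rise in DKO. It ranged over 2.88 to 3.93 (median 3.15) in WT, 2.35 to 4.59 (median 3.25) in Cyp1a1 KO and 3.52 to 7.69 (median 5.72) in DKO. The 2 normal-range DKO arrays read 3.52 and 3.84, inside the WT range, and the 8 low-range DKO arrays read 4.53 to 7.69. The difference from WT was 2.36 ± 0.28 (5.15-fold, adjusted p = 5.15e-07), and 0.21 ± 0.38 without low-range arrays (adjusted p = 0.682). Cyp2c38 (1.92) and Cyp3a16 (1.86) likewise lost their calls there.

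Other genes that rose kept a call without low-range arrays. Cyp4f16, a Cyp4f fatty acid hydroxylase, ranged over 4.98 to 5.59 (median 5.39) in WT and 5.61 to 7.32 (median 6.23) in DKO, with no overlap between them. It differed by 1.04 ± 0.18 (adjusted p = 2.69e-05) and by 0.72 ± 0.22 without low-range arrays (adjusted p = 0.0196). Cyp24a1, which inactivates vitamin D, rose by 0.87 ± 0.15 (adjusted p = 2.42e-05) and by 0.54 ± 0.15 without those arrays. Cyp4f39, whose human counterpart makes the omega-hydroxylated fatty acids of skin barrier ceramides, rose by 1.36 ± 0.24 (adjusted p = 3.89e-05) and by 0.79 ± 0.19. In the normal-range arrays of DKO, Cyp4f39 read 4.22 at week 0 and 5.25 at week 12. Cyp2u1, which hydroxylates arachidonic acid, differed by 0.52 ± 0.17 over all arrays and by 0.97 ± 0.14 without low-range ones (adjusted p = 0.000122), but by -0.27 after quantile normalization. Cyp2u1 (0.81), Cyp21a1 (0.76) and Cyp2c29 (0.52) were the 3 genes called higher in DKO than in Cyp1a1 KO without low-range arrays.

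**Figure D4:**
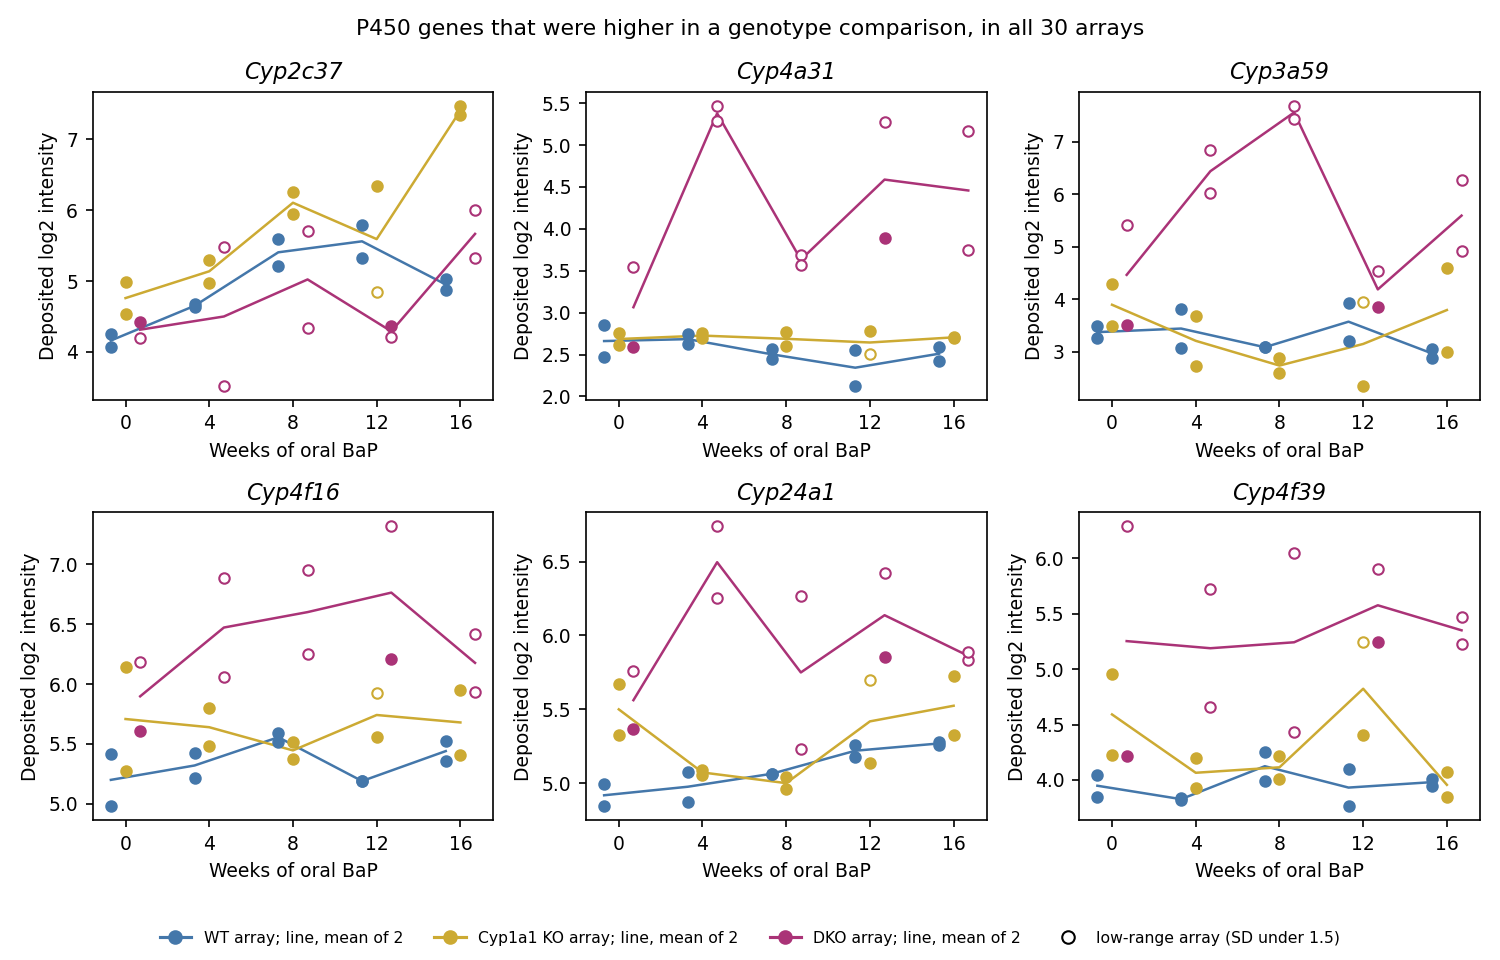
Log2 intensity (y axis) of Cyp2c37, Cyp4a31, Cyp3a59, Cyp4f16, Cyp24a1 and Cyp4f39 on each of the 30 arrays against weeks of oral BaP, with lines through the means of 2 arrays and open circles for low-range arrays. The first panel shows Cyp2c37 at 7.47 and 7.34 in Cyp1a1 KO at week 16.

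Between DKO and Cyp1a1 KO, 63 of the 83 genes were called, 52 higher and 11 lower, against 59.8% of all genes (34% higher, 25.8% lower). These values and those against WT share the DKO arrays. The 11 lower genes were Cyp2j12, Cyp2b19, Cyp2f2, Cyp2e1, Cyp2j6, Cyp2c37, Cyp20a1, Cyp3a57, Cyp27a1, Cyp4b1 and Cyp2j9. Cyp2e1 stood at -1.82 ± 0.32 (adjusted p = 0.00012) and Cyp2j6 at -1.600 ± 0.23 (adjusted p = 1.88e-05). Without low-range arrays 10 genes were called, 3 higher and 7 lower, against 9.86% of all genes. The lower ones were then Cyp2j12, Cyp2f2, Cyp2c37, Cyp2b19, Cyp3a57, Cyp3a25 and Cyp2g1.

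Loss of Cyp1a1 alone went with 1 called P450 gene, Cyp2c37, against 4.33% of all genes, 0.383% higher. Cyp2c37 is a mouse Cyp2c enzyme that oxidises arachidonic acid. Its Cyp1a1 KO arrays read 4.53 and 4.99 at week 0, 5.30 and 4.98 at week 4, 6.26 and 5.95 at week 8, 6.34 and 4.84 at week 12 and 7.47 and 7.34 at week 16. WT read 4.06 and 4.26, 4.63 and 4.67, 5.60 and 5.21, 5.33 and 5.80 and 4.87 and 5.03 at the same weeks. The 2 genotypes were apart at every week but week 12, where the low-range array was the lower of the pair. The difference was 0.85 ± 0.23 (1.81-fold higher, adjusted p = 0.0342). It was 0.66 after quantile normalization (adjusted p = 0.56) and 1.00 without the low-range Cyp1a1 KO array (adjusted p = 0.0119). Leaving out all 9 low-range arrays, most of them DKO, kept that value and lowered the shared spread (1.00 ± 0.10, adjusted p = 1.63e-05). The call ended on leaving out any of 17 of the 20 arrays (adjusted p 0.0119 to 0.0832).

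Without all 9 low-range arrays, 26 P450 genes were called between Cyp1a1 KO and WT, 21 higher and 5 lower, against 25.96% of all genes (13.9% higher). Only 1 of these 9 arrays is Cyp1a1 KO, and without it alone 1 gene was called, against 2.87% of all genes. Beside Cyp2c37 the differences were small. The higher genes included Cyp7b1, which hydroxylates oxysterols (0.46 ± 0.12, adjusted p = 0.0157), Cyp2c54 (0.45 ± 0.14), Cyp2d9 (0.42 ± 0.10), Cyp2d26 (0.41 ± 0.07) and Cyp2c50 (0.39 ± 0.09). The 5 lower genes were Cyp2f2 (-0.70 ± 0.13, adjusted p = 0.00164), Cyp4f13 (-0.35 ± 0.11), Cyp4b1 (-0.31 ± 0.10), Cyp27a1 (-0.31 ± 0.10) and Cyp2j12 (-0.27 ± 0.09). With all arrays Cyp2f2 stood at -0.88 ± 0.35 (adjusted p = 0.171). A positive difference was found for 69 of the 83 genes, against 61.5% of all genes, with medians of 0.26 and 0.10. By WT level, the medians of P450 genes and all genes were 0.34 and 0.36 under 3, and 0.32 and 0.28 between 3 and 4. They were 0.20 and 0.18 between 4 and 5, and 0.17 and 0.01 between 5 and 6. Between 6 and 7 they were -0.23 and -0.18, and at 7 and above -0.40 and -0.19.

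On BaP, the mean of weeks 4 to 16 was compared with week 0 within each genotype. In WT 0 of the 83 genes were called, against 0% of all genes, and 2 had an unadjusted p under 0.05, against 0.82%. These were Cyp2c37 (0.98 ± 0.41, adjusted p = 1) and Cyp4a12b (-0.80 ± 0.34). In Cyp1a1 KO 0 genes were called, against 0%, and 1 had an unadjusted p under 0.05 (1.37% of all genes), Cyp2c37 at 1.30 ± 0.41 (adjusted p = 1). Without all 9 low-range arrays Cyp2c37 was the single P450 gene called in Cyp1a1 KO on BaP (1.49, adjusted p = 0.00317). Leaving out any single Cyp1a1 KO array did not give that call. Cyp2b10, the textbook target of the receptor CAR, stood at 0.38 ± 0.29 in WT and -0.28 ± 0.29 in Cyp1a1 KO. Cyp3a11, the textbook target of the receptor PXR, stood at -0.16 ± 0.39 and -0.02 ± 0.39.

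In DKO on BaP 2 genes were called, 1 higher and 1 lower, against 0.974% of all genes (0.57% higher, 0.405% lower). Cyp2b19, whose arrays are given above, fell by 2.03 ± 0.44 (4.08-fold, adjusted p = 0.0273). Suprabasal keratinocyte markers (7 of 8 measured) averaged 7.02 and 7.39 in DKO at week 0 and 7.58 and 7.75 at week 4. At weeks 8 to 16 they averaged between 8.87 and 10.53, and their part in the fall of Cyp2b19 was not tested. Cyp4a31, of the Cyp4a fatty acid hydroxylases, read 2.59 and 3.54 at week 0, 5.47 and 5.29 at week 4, 3.69 and 3.57 at week 8, 5.28 and 3.90 at week 12 and 5.17 and 3.74 at week 16. Each array on BaP lay above both of week 0, and its WT and Cyp1a1 KO arrays lay between 2.13 and 2.85. It rose by 1.45 ± 0.33 (2.73-fold, adjusted p = 0.0352). Both calls ended without DKO week 0 replicate 1, where Cyp2b19 stood at -1.54 (adjusted p = 0.161) and Cyp4a31 at 0.97 (adjusted p = 0.222). Between the 2 normal-range DKO arrays, week 12 against week 0, Cyp2b19 went from 11.63 to 9.20, Cyp2j12 from 9.32 to 5.61 and Cyp4a31 from 2.59 to 3.90.

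Before BaP, at week 0, 0 of the 83 genes were called between any 2 genotypes, against 0% of all genes for Cyp1a1 KO minus WT, 3.9% for DKO minus WT and 0% for DKO minus Cyp1a1 KO. Unadjusted p values below 0.05 were found for 3 genes (6.88% of all), 36 genes (31.3%) and 12 genes (8.52%), in that order. Without DKO week 0 replicate 1, which leaves the low-range array alone, 45 genes were called between DKO and WT and 22 between DKO and Cyp1a1 KO, against 39.6% and 18.98% of all genes. Cyp2j12 differed from WT by -2.55 ± 0.79 (adjusted p = 0.0635), with DKO arrays that were 3.75 apart. The change on BaP was also compared between genotypes, and 0 genes were called in each of the 3 comparisons, against 0%, 0.0373% and 0.0426% of all genes. Unadjusted p values under 0.05 numbered 1 for Cyp1a1 KO minus WT (0.538% of all genes), 7 for DKO minus WT (4.74%) and 8 for DKO minus Cyp1a1 KO (7.3%). The change of Cyp2b19 in DKO minus that in WT was -2.31 ± 0.63 (adjusted p = 0.492), and that of Cyp4a31 was 1.5998 ± 0.47 (adjusted p = 0.651). Without low-range arrays, where the change in DKO is 1 array of week 12 against 1 of week 0, 8 genes were called, against 3.02% of all genes. Cyp2b19 then stood at -2.58 (adjusted p = 0.00112), Cyp4a31 at 1.63 (adjusted p = 0.00865) and Cyp2j12 at -3.47 (adjusted p = 3.37e-05). Without DKO week 16 replicate 2 alone Cyp2b19 was called (-2.63, adjusted p = 0.0192). Whether the changes in DKO differ from those in WT thus depends on the arrays kept.

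P450 enzymes need electron donors, heme and, for epoxide products, hydrolases. Of 12 such genes listed 10 were measured, all but Por, the P450 reductase, and Fdxr. Of these 10, 9 were lower in DKO than in WT and 0 higher, with a median of -1.23. They were bright genes, and genes at the same WT levels had a median of -1.14, with 79.3% called lower, so the list as a whole is near the background. Cyb5r3, the reductase of cytochrome b5, averaged 9.70 in WT, 7.98 in Cyp1a1 KO and 6.90 in DKO. It differed from WT by -2.80 ± 0.15 in DKO (adjusted p = 2.83e-11) and by -1.72 ± 0.15 in Cyp1a1 KO (adjusted p = 1.15e-06). Ephx1, the microsomal epoxide hydrolase that acts on BaP epoxides, differed by -2.24 ± 0.27 in DKO (adjusted p = 6.05e-07) and by -0.97 ± 0.27 in Cyp1a1 KO (adjusted p = 0.0375). Ephx2, the soluble hydrolase of fatty acid epoxides, differed by -2.32 ± 0.35 in DKO (adjusted p = 7.91e-06), and Cyb5b by -1.81 ± 0.19. Without low-range arrays Cyb5r3 stood at -2.56, Ephx1 at -1.64 and Ephx2 at -1.61 (adjusted p = 5.8e-07, 0.000913 and 6.15e-06 in limma). In Cyp1a1 KO 4 of the 10 were lower, Cyb5r3, Ephx1, Alad and the heme synthesis gene Alas1, with a median over the 10 of -0.45. Calls of Ephx1 and Alas1 in Cyp1a1 KO ended on leaving out single arrays (adjusted p up to 0.118 and 0.0752), while those of Cyb5r3 and Alad did not.

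Of 14 receptor genes that regulate P450s, 5 were higher and 7 lower in DKO than in WT, against 74.6% of all genes called. Their median was -0.46, and genes at the same WT levels had a median of -0.25, with 34.6% called higher and 40.0% lower. Pparg, the lipid receptor of fat cells and sebocytes, fell by 1.66 ± 0.24 (adjusted p = 4.92e-06), and Ppara, which drives Cyp4a genes in liver, fell by 1.18 ± 0.15 (adjusted p = 1.35e-06). Both had WT means of 7 and above, where the median over all genes was -1.14. Without low-range arrays Pparg stood at -1.09 (adjusted p = 0.000605) and Ppara at -0.69 (adjusted p = 0.00349). Vdr, Rxra, Arnt, Ppard and Esr1 were also lower over all arrays. Nr1i2, which encodes PXR, rose by 1.13 ± 0.22 (adjusted p = 0.000109), and Nr1i3, Rxrb, Nr1h4 and Hnf4a were higher. Ahr itself was not called (-0.43 ± 0.21, adjusted p = 0.0678), and its sign turned without low-range arrays (0.58). In Cyp1a1 KO 2 were called, Rxra and Vdr, both lower.

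**Figure D5:**
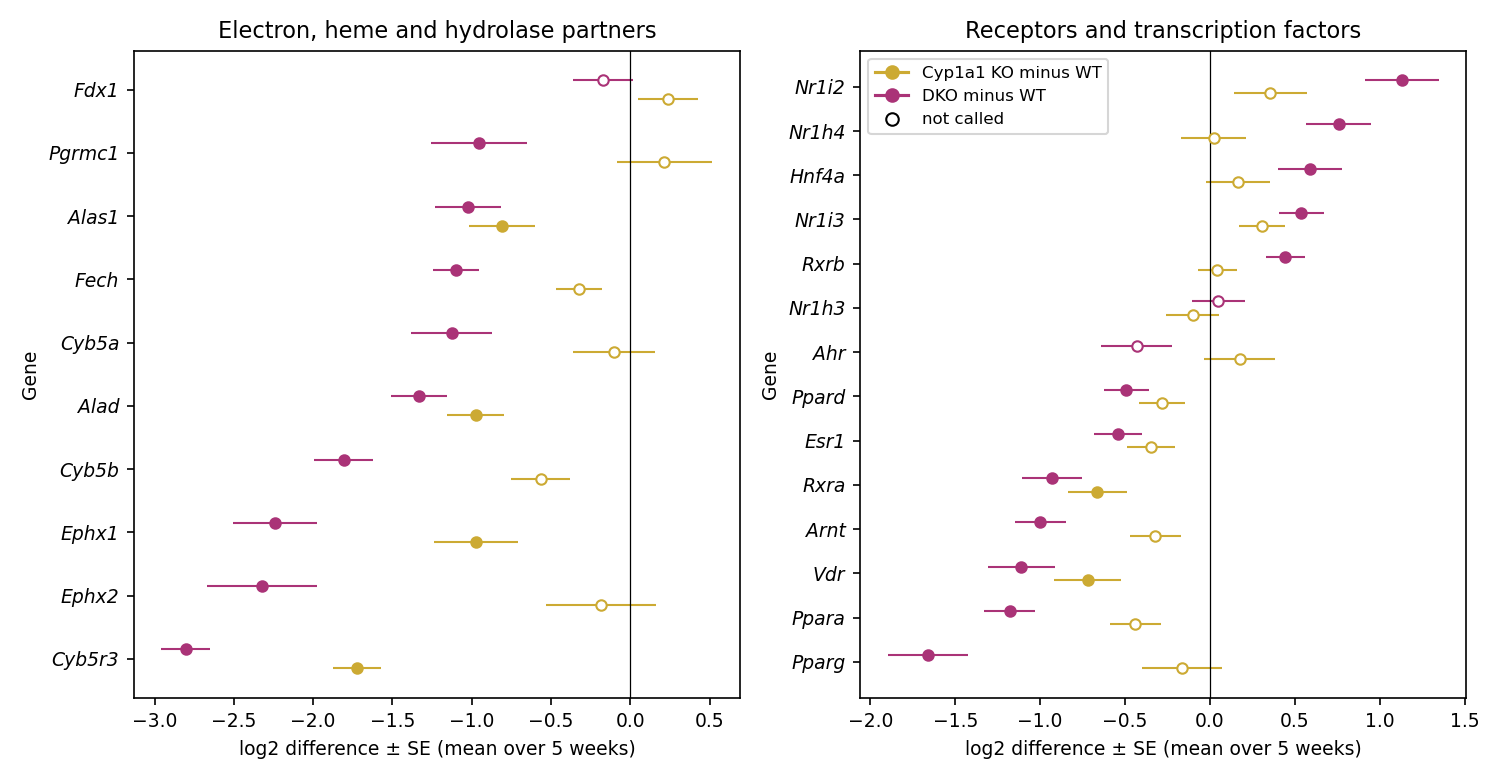
Log2 difference ± SE (x axis) from WT in Cyp1a1 KO and DKO for 10 partner genes (left) and 14 receptor and transcription factor genes (right), filled where called. Cyb5r3 stands lowest on the left, at -1.72 and -2.80, and Pparg lowest on the right in DKO, at -1.66.

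Markers of several cell types differed between DKO and WT, as 74.6% of all genes did in limma. Sebocyte markers (10 of 10 measured) had means per array of 8.05 to 8.34 for WT, 7.55 to 8.22 for Cyp1a1 KO, and 5.93 to 7.63 for DKO. Suprabasal keratinocyte markers (7 of 8) stood at 6.27 to 6.91 for WT, 6.60 to 7.07 for Cyp1a1 KO, and 7.02 to 10.53 for DKO. Neutrophil markers (7 of 7) stood at 4.31 to 4.78 in WT and 4.53 to 7.64 in DKO. Of the 10 sebocyte markers 7 were called lower and 2 higher in DKO than in WT, with a median difference of -1.91. Basal keratinocyte markers (6 of 6 measured) had 5 called lower and a median of -1.22. Among all genes with a WT mean of 7 and above 82.9% were lower, with a median of -1.14. Suprabasal markers had 6 of 7 called higher, and neutrophil markers 4 of 7. Male accessory gland markers (5 of 5 measured) averaged 2.73 to 2.94 in WT, and 5 of 5 were called higher in DKO, with a median of 1.44. All genes with a WT mean under 3 had a median of 1.37. The marker lists were not matched for level gene by gene. In bulk samples, fewer cells of a type and less RNA per cell cannot be told apart. The part of these cell types in the P450 values was not tested.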

How the data were processed

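Expression in dissected preputial glands, labelled as gland duct, was measured on 30 arrays, 2 in each of 15 groups of genotype and week, and the number of arrays limits the precision. The authors deposited log2 intensities per probe set, made with RMA, per the submitters' processing notes. The annotation build is not given in the sources used here. Of 21212 probe sets 18786 carried 1 symbol in the platform table, 6 carried several and 2420 were not named there. The brightest probe set stood for each of 18784 genes, with no filter on low values.

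A mean for each group was fitted in limma 3.58.1 (R 4.3.3), with eBayes and Benjamini-Hochberg adjustment over all genes in each of 12 comparisons, and two-sided tests called at an adjusted p under 0.05. Errors are standard errors of the fit. The fit gives all groups the same spread. Estimated array weights were 0.178 to 0.350 in DKO and 1.44 to 6.39 in WT, so that DKO arrays scattered more than this shared spread assumes. P values rest on 1 spread per gene, pooled over the pairs of mice of all 15 groups and not taken from the compared groups alone. Where a fit leaves 1 array in a group, only the other groups give that spread. The fit was tested on simulated data in which each gene had the same spread on every array and no array was low-range. That test does not cover the wider scatter of the DKO arrays. Marker, partner and role lists came from textbook knowledge, and the genes and lists were chosen with earlier results of these data known. Named were called genes, the 3 highest and lowest non-overlapping genes of a comparison, the 3 brightest of a role and those above the 75th percentile. The text prints some of them, chosen with their values known. For a list, the background at the same WT levels is the median over its genes of the medians of their bands, and the mean share called in those bands, a description added after seeing the data. The highest band, 7 and above, has no upper limit, so genes of unlike level share it. Alternatives were quantile normalization, median centring, a mean level of at least 5, a variance trend, array weights, only the genotypes compared, the replicate number as a block, all probe sets, the label number range as a block, leaving out low-range arrays, and leaving out each array. The fits within each number range were chosen after seeing the data. Sequences came from RefSeq (GRCm38.p6).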

Additional observations from a re-analysis of the deposited data

How the results depend on the processing

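Counts are of the 83 genes called. They are not results about P450 genes by themselves, since the share of all genes called moved with the setting too. For Cyp1a1 KO minus WT that share was 4.33% in the main fit, 0.681% with quantile normalization, 5.25% with median centring and 19.9% with array weights. At week 0 it went from 0% to 15.6% for that comparison without low-range arrays. For DKO on BaP, too, more of all genes were called without low-range arrays than with them. Between DKO and WT the count of 68 became 34 with quantile normalization, 13 of 21 genes with a mean level of at least 5, 0 with the number range as a block, 34 without low-range arrays and 8 within numbers 1 to 20. Between DKO and Cyp1a1 KO the count of 63 became 30, 13, 0 and 10 in the first 4 of these settings, and 0 within numbers 1 to 20 and 0 within 22 to 33. Between Cyp1a1 KO and WT the count of 1 became 0 with quantile normalization and 0 with median centring, 20 with array weights, 19 with only these genotypes in the fit, and 26 without low-range arrays, which equals numbers 1 to 20 (26). For DKO on BaP the count of 2 became 4 with quantile normalization, 1 with a mean level of at least 5, 1 with a variance trend, 0 with array weights, 0 with only DKO in the fit, 9 without low-range arrays and 0 within numbers 22 to 33. Cyp1a1 KO on BaP went from 0 to 1 without low-range arrays and 1 within numbers 1 to 20. At week 0, Cyp1a1 KO minus WT went from 0 to 11 without low-range arrays and 11 within numbers 1 to 20, and DKO minus WT to 3 with median centring, 1 with a mean level of at least 5, 1 with a variance trend, 8 without low-range arrays and 8 within numbers 1 to 20. The BaP change in DKO gave 8 against WT and 7 against Cyp1a1 KO without low-range arrays, where DKO has 1 array at each of 2 weeks, assumed to vary like the others.

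Leaving out single arrays gave 67 to 71 for DKO minus WT, 53 to 67 for DKO minus Cyp1a1 KO, 1 to 10 for DKO on BaP, 0 to 14 for Cyp1a1 KO minus WT, 0 to 45 for DKO minus WT at week 0, 0 to 22 for DKO minus Cyp1a1 KO at week 0, 0 to 1 for the BaP change in DKO against WT and 0 to 1 against Cyp1a1 KO, and 0 to 0 for the others. For DKO on BaP the 1 arose without replicate 1 of week 0 and the 10 without its replicate 2, and dropping replicate 2 of week 16 gave 8. Cyp1a1 KO minus WT gave 14 without Cyp1a1 KO week 12 replicate 1 and 0 without any of 17 other arrays. The values of 45 and 22 at week 0 came without DKO week 0 replicate 1, and the value of 1 in the BaP changes without DKO week 16 replicate 2. With the replicate block the counts were 69 for DKO minus WT and 62 for DKO minus Cyp1a1 KO, and no other count moved. Same-numbered replicates did not deviate together (correlations of -0.55 to 0.67 over 105 pairs of groups, median -0.02), so the number does not pair mice.

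Of the single differences the text gives, these turned sign under the setting named first: quantile normalization, Ahr 0.12, Cyp26c1 -0.062, Cyp2u1 -0.27 (DKO minus WT) and Cyp2u1 -0.23 (DKO minus Cyp1a1 KO) and Cyp3a11 0.086 (Cyp1a1 KO on BaP); with the number range as a block, Ahr 0.77, Cyp17a1 -0.15, Cyp20a1 0.36, Cyp26c1 -0.21, Cyp27a1 0.21, Cyp2j9 0.20, Cyp2u1 -0.32, Cyp3a16 -0.28 (DKO minus WT) and Cyp2c29 -0.085, Cyp2u1 -0.42 (DKO minus Cyp1a1 KO); without low-range arrays, Ahr 0.58, Cyp2j9 0.19 (DKO minus WT); within label numbers 1 to 20, Ahr 0.82, Cyp17a1 -0.078, Cyp2b19 0.11, Cyp2j9 0.076, Cyp3a57 0.28, Cyp4a31 -0.074 (DKO minus WT) and Cyp2b19 0.22, Cyp3a59 -0.38, Cyp4a31 -0.098 (DKO minus Cyp1a1 KO); within label numbers 22 to 33, Cyp2c29 -0.92, Cyp2e1 0.28, Cyp2j6 0.18, Cyp2u1 -0.21 (DKO minus Cyp1a1 KO); with single arrays left out, Cyp2j9 -0.13 to 0.021 (DKO minus WT, turned by DKO week 0 replicate 2 and DKO week 12 replicate 1), Cyp3a11 -0.19 to 0.16 (Cyp1a1 KO on BaP, turned by Cyp1a1 KO week 0 replicate 1), Cyp3a11 -0.34 to 0.026 (WT on BaP, turned by WT week 0 replicate 1), Cyp2e1 -0.41 to 1.92 (BaP change in Cyp1a1 KO minus WT, turned by Cyp1a1 KO week 0 replicate 1), Cyp2j12 -3.54 to 0.21 (BaP change in DKO minus WT, turned by DKO week 0 replicate 1), Cyp2j12 -3.39 to 0.36 (BaP change in DKO minus Cyp1a1 KO, turned by DKO week 0 replicate 1). The cause was not tested. Over all 177 pairs of a gene and a comparison that the naming rule takes, direction and call were kept for 104 with quantile normalization, 158 with median centring, 163 with array weights and 74 without low-range arrays. With the number range as a block direction and call were kept for 44 of the 177, and 51 turned sign. Within numbers 1 to 20 they were kept for 33 of 161 pairs, and 37 turned sign. Within numbers 22 to 33 they were kept for 2 of 67 pairs, and 35 turned sign. For the 26 genes that stayed at or below the median of every array, signal over background limits what can be said.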
